A study of Homo sapiens with 11 samples.

Results

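Transposable element families are groups of repeated sequences left by mobile DNA. Here they are the rows of the 3 deposited repeat tables whose names begin with one of 15 prefixes (L1, L2, L3, HAL1, Alu, MIR, SVA, LTR, MER, MLT, MST, THE1, HERV, Tigger or Charlie). By that rule 44 distinct families were found among 326 distinct repeat elements listed in any table. They were 12 of the 79 elements listed with wild-type RPS19 (WT), 24 of 230 with the substitution R62W and 28 of 252 with the substitution R101H. The rule uses names only, and being in a table means that the authors' test called the element enriched in at least 2 replicates, at a q-value under 0.05.

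The study used enhanced crosslinking and immunoprecipitation (eCLIP), in which cells are crosslinked, RNA is fragmented with RNase I and the RNA held by a protein is precipitated with it and sequenced. The protein was RPS19, a component of the small ribosomal subunit, expressed with a V5 tag from a transfected plasmid in HEK293T, a human embryonic kidney line that carries the SV40 large T antigen. V5 antibody immunoprecipitates (IP) were made from cells carrying WT (3 samples), R62W (3) or R101H (2), both substitutions linked to Diamond-Blackfan anemia, and 3 size-matched inputs came from cells without a plasmid. IP and input cells thus differed in transfection as well as in precipitation. Nothing in the labels says whether replicates came from different cultures, so the spread that the p-values rest on may be purely technical. They mention no change to the cells' own RPS19 gene. The repeat tables hold no cell marker genes, so the cell line was not checked against markers here.

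L1 elements (LINE-1) are retrotransposons that copy themselves through an RNA intermediate and encode the proteins they need. Alu, MIR and SVA elements encode none and depend on such machinery, and an SVA joins several parts, one of which derives from a long terminal repeat (LTR) of the endogenous retrovirus HERV-K. LTR elements are remains of retroviruses, either the terminal repeats or, where the name ends in -int, the internal part. DNA transposons such as Charlie and Tigger moved by excision and insertion, and their human copies are fossils. Most copies lie in introns and intergenic DNA and are transcribed mainly as passengers of other genes.

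Among the transposable element families, LTR and L1 families together were the majority in each group, and no Alu or MIR family was listed in any group. WT had 8 LTR families, 2 SVA, 1 L1 and 1 DNA transposon. R62W had 11 L1, 8 LTR, 3 SVA, 1 L2 and 1 DNA transposon, and R101H had 14 LTR, 5 L1, 4 SVA, 4 DNA transposons and 1 L2. The prefixes L3, HAL1, Alu, MIR, MST and THE1 had 0 rows in each table. A family that a table leaves out has no value there, so its absence is not a measured 0. The MER names were assigned by general knowledge of repeat classes, MER91B to DNA transposons and the other 4 to LTR elements, since the tables give no class.

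**Figure D1:**
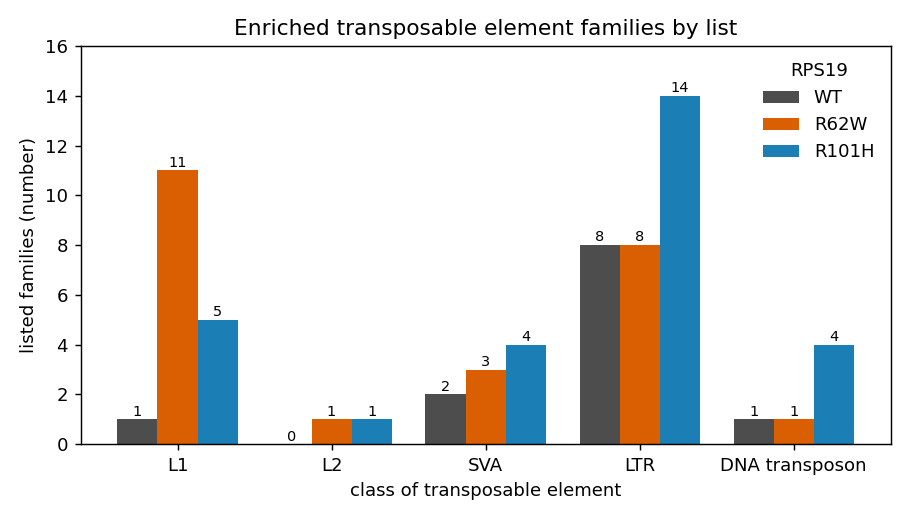
Bars give the number of listed transposable element families (vertical axis) per class (horizontal axis) in the WT, R62W and R101H lists, with the number above each bar. L1 families number 1, 11 and 5, LTR families 8, 8 and 14, and there is 1 list per group, so the bars carry no error.

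Families of transposable elements were 15.2% of the WT list (exact Clopper-Pearson 95% interval 8.10 to 25.0), 10.4% of the R62W list (6.80 to 15.1) and 11.1% of the R101H list (7.51 to 15.7). The intervals overlap and cover counting error only, and the lists, 1 per group, have no replicate check. Their share of the IP counts summed over each list was 1.65% with WT, 7.74% with R62W and 6.04% with R101H. The share depends on what else was listed: the small nucleolar RNA U3, which appears in the WT list alone, held 343998 of the 909072 IP counts there. How far U3 accounts for the lower WT share was not tested. L1 families alone held 0.41% of the IP counts with WT, 6.63% with R62W and 1.77% with R101H.

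Median enrichment of these families was below that of the tRNA families and simple repeats, and nearer to that of the remaining listed elements. The deposited value is a log2 odds ratio of IP over input, where 0 means no enrichment and 1 a doubling of the odds. With WT, the median over families was 0.89 and that over all listed elements 1.35. With R62W these medians were 0.74 and 1.43, and with R101H they were 0.81 and 1.5. Medians over tRNA families were 1.72, 2.27 and 2.30 in the same order of groups, and those over simple repeats 1.18, 1.49 and 1.51. The remaining elements, which include small nuclear RNAs, satellites and transposable elements outside the prefixes, had medians of 1.05, 0.79 and 0.93, and 6 of 9, 13 of 18 and 9 of 14 of them lay below the median of their list. Most transposable element families lay below the median of their list: 10 of 12 for WT, 21 of 24 for R62W and 25 of 28 for R101H. All these medians cover only elements that passed the authors' test, and depth differed between the sets. Median pooled input counts for WT, R62W and R101H were 447, 1226 and 431 for the families. For simple repeats they were 176.5, 57 and 49, and for tRNA families 1063, 1297 and 803. Whether depth shaped the gaps in enrichment was not tested. No family had a replicate value below 0, the lowest being 0.20 (MER66-int, WT), 0.12 (LTR66, R62W) and 0.43 (L1ME5_AS, R101H). Over all listed elements, only 2 of 79 (WT), 3 of 230 (R62W) and 0 of 252 (R101H) had such a value. Listing needs at least 2 passing replicates, so values below 0 were largely kept out beforehand.

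Recurrence between groups is given as a description, with no test. Of the 44 families, 5 were in all 3 lists and 29 (65.9%) in 1 list only, while 63 of all 326 elements were in all 3 and 154 (47.2%) in 1 only. Of the 12 WT families, 7 (58.3%) were also listed with a substitution, against 70 of 79 (88.6%) for all elements. R62W and R101H shared 13 families, 54.2% of the R62W and 46.4% of the R101H families, against 71.7% and 65.5% for all elements. Each substitution shared 6 with WT, which is 50% of the WT families and 25% of those of R62W or 21.4% of those of R101H. Over all elements, those shared by R62W and WT were 86.1% of the WT list and 29.6% of the R62W list. Those shared by R101H and WT were 82.3% of the WT list and 25.8% of the R101H list.

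Depth differed widely between families. Pooled IP counts per family ran from 134 to 3740 in WT, from 124 to 14469 in R62W and from 103 to 10435 in R101H, and pooled input counts from 31 to 1471, 54 to 9823 and 29 to 3347. The tables give no library totals, so library depth is unknown. For the families shared by R62W and WT, the summed input counts had a ratio of 1.00. Those of R101H were 0.643 times the WT sums and 0.648 times the R62W sums. Enrichments in different groups therefore rest on input counts that are nearly the same for R62W and WT, and the comparisons with WT also share the WT samples. The series has only 3 input samples for all IP groups, and which of them served each IP is not given. The limma fits treat the replicate values as independent, so their intervals take no account of shared inputs.

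L1MA10, an old mammalian L1 family that is no longer mobile, was listed in all 3 groups and had the highest L1 mean in each. Its replicate values were 1.26, 1.61 and 2.42 with WT, 2.05, 2.17 and 3.38 with R62W, and 1.42 and 2.30 with R101H. The groups overlapped, and the highest R62W value stood 1.21 above the next one. Pooled IP counts were 3740, 6793 and 2832 against input counts of 1471, 1469 and 944. At 31.9% G and C it was the most A- and T-rich of all 44 families.

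R62W alone listed 3 further A- and T-rich L1 families with mean values above 1. L1MA4A had replicate values of 0.95, 1.36 and 2.00, from 9831 IP and 4853 input counts. L1ME3G, with the most IP counts of any family (14469, against 8518 in input), had 0.83, 0.85 and 1.82. L1MCa had 0.57, 0.75 and 1.96. The highest replicate stood above the next by 0.64 for L1MA4A, 0.96 for L1ME3G and 1.21 for L1MCa. The middle value stood above the lowest by 0.41, 0.021 and 0.18 in the same order, and by 0.12 for L1MA10 in R62W. L1MA4A was thus more evenly spread than the others. The tables do not label replicates, so whether the high value came from the same library was not tested. All 3 passed in every replicate. L1MA1, also A- and T-rich at 34.9% G and C, had 0.44, 0.45 and 0.56, the lowest mean of the R62W list, and passed in 2 of 3 replicates.

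The young L1 families formed a narrow band of low enrichment, nearly all of it in the R62W list. L1HS is the human-specific family that still holds mobile copies, and L1PA families are its primate relatives. L1HS had replicate values of 0.50, 0.63 and 0.72 in R62W, from 1386 IP and 1027 input counts. L1PA2 had 0.49, 0.57 and 0.61, L1PA3 0.42, 0.49 and 0.58, L1PA4 0.47, 0.52 and 0.64, and L1PA6 0.51, 0.54 and 0.55. All 5 passed in every R62W replicate, and their means spanned only 0.50 to 0.62. Such means were not particular to young L1 families, since L1MA1 had 0.48, SVA_B 0.51 and LTR33B 0.57 in R62W. The lowest mean of any element in the R62W list was 0.48, so the band lay near the floor of that list. Together they held 36212 IP counts, 39.6% of those of the families in R62W. In R101H only L1PA2 of these was listed, at 0.51 and 0.55, and WT listed none. Copies of young L1 families are nearly identical, and no source used here gives how reads were assigned among them, so the split between these families is uncertain.

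The other L1 rows had a suffix _AS, whose meaning the tables do not give, or were listed in R101H alone. L1M3a_AS had 0.67, 0.71 and 0.89 in R62W and 0.91 and 1.08 in R101H, groups that did not overlap. Of the 165 elements listed with both substitutions, 26.1% were likewise higher in R101H without overlap. L1MDb, listed in R101H alone, had 0.49 and 0.62. L1ME5_AS had 0.43 and 0.50 there with a highest q of 0.0491, the nearest of all R101H families to the threshold. The L1MDb q was 0.0444 and that of LTR66 0.0424.

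One L2 row, L2-1_Crp, was listed with both substitutions and not in WT. L2 is an ancient LINE family whose human copies are inactive. Its replicate values were 0.97, 1.49 and 1.73 in R62W and 2.03 and 2.29 in R101H. Both R101H values thus lay above all of R62W, as held for 26.1% of the 165 elements listed with both substitutions. The pooled input counts behind the R62W and R101H values were 54 and 30, and the IP counts 124 and 122. In R101H it had the highest mean of all listed families, 2.16 ± 0.18 (SD, n = 2).

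**Figure D2:**
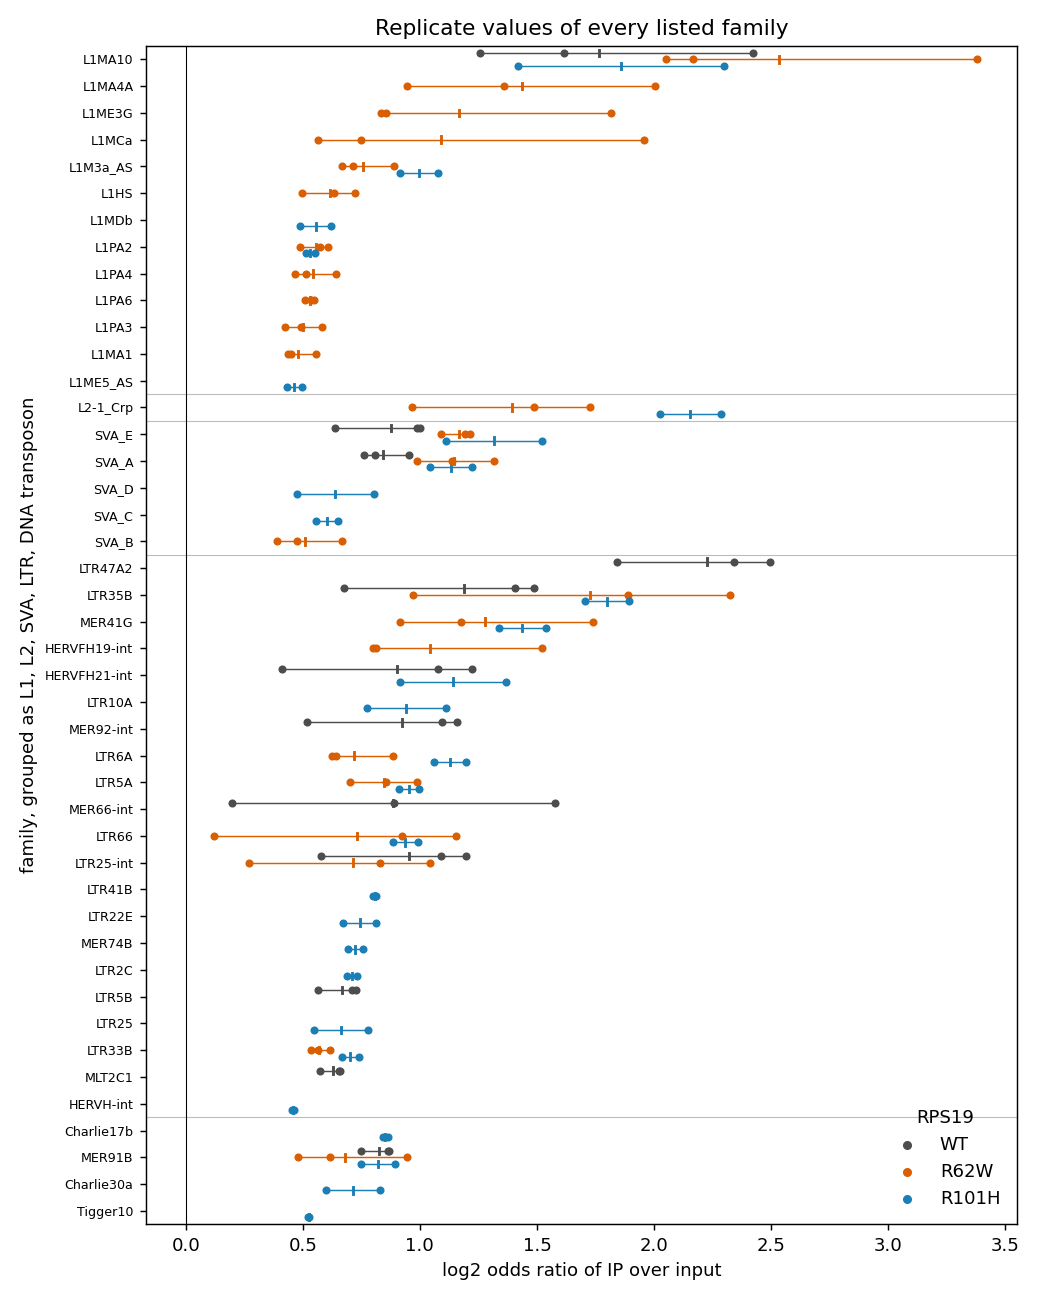
Each row is 1 of the 44 families, grouped by class from L1 at the top to DNA transposons at the bottom, and the horizontal axis is the log2 odds ratio of IP over input. Points are unlabelled replicate values (3 for WT and R62W, 2 for R101H), thin lines join the lowest and highest, and short upright bars are means. L1MA10 and L2-1_Crp stand to the right of most families, while L1HS and the L1PA families lie between 0.42 and 0.72.

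SVA families, which arose in the ape lineage, were listed in every group. SVA_A and SVA_E were in all 3 lists, SVA_B in R62W alone, and SVA_C and SVA_D in R101H alone. SVA_A had 0.76, 0.81 and 0.96 with WT, 0.99, 1.14 and 1.32 with R62W, and 1.04 and 1.22 with R101H. SVA_E had 0.64, 0.99 and 1.00 with WT, 1.09, 1.19 and 1.22 with R62W, and 1.11 and 1.52 with R101H. For both, every replicate with a substitution lay above every WT replicate, as did 33.8% of all elements tested for R62W and 30.8% for R101H. Relative to the median difference of all elements SVA_A and SVA_E were at -0.29 and -0.30 for R62W minus WT and at -0.16 and -0.0090 for R101H minus WT. SVA_A and SVA_E passed in all 3 replicates of WT and of R62W.

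The other SVA families had lower odds ratios from similar or larger counts. SVA_B had 0.39, 0.47 and 0.67 in R62W and passed in 2 of 3 replicates, with a highest q of 0.217. SVA_C had 0.56 and 0.65 in R101H. SVA_D had 0.47 and 0.80 there, from 10435 IP and 3347 input counts, the most IP counts of any R101H family. Its log2 ratio of IP to input was 1.64, yet its mean log2 odds ratio was 0.64. SVA_D is also the family richest in G and C, at 56.8%.

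The gap between both measures moved with base composition. The difference between the log2 ratio of pooled counts and the mean log2 odds ratio had a median of -0.43 in WT for families under 35% G and C, 0.034 from 35% to 45% and 0.40 from 45% to 55%. In R62W the same medians were -0.40, -0.19 and 0.22, and in R101H -0.27, -0.12 and 0.21. The lowest bin held 2 families in WT, 5 in R62W and 1 (L1MA10) in R101H. Over all listed elements the medians of the same bins were -0.20, -0.076 and 0.42 for WT, -0.40, -0.25 and 0.37 for R62W, and -0.16, -0.18 and 0.56 for R101H, so the R101H medians did not rise between the lowest bins. SVA_D, the only family above 55%, had a gap of 1.00. Over all listed elements above 55% the median was 1.00 for WT, 0.99 for R62W and 1.05 for R101H. Some A- and T-rich families were listed at a ratio of counts near 1, while L1MA10 in R62W had a log2 ratio of 2.21. Whether base composition shaped the listing was not tested. L1MA1 in R62W had 1715 IP and 1684 input counts, a log2 ratio of 0.026, and a mean log2 odds ratio of 0.48, while L1ME5_AS in R101H had 1847 and 1766 counts, 0.065 and 0.46.

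**Figure D3:**
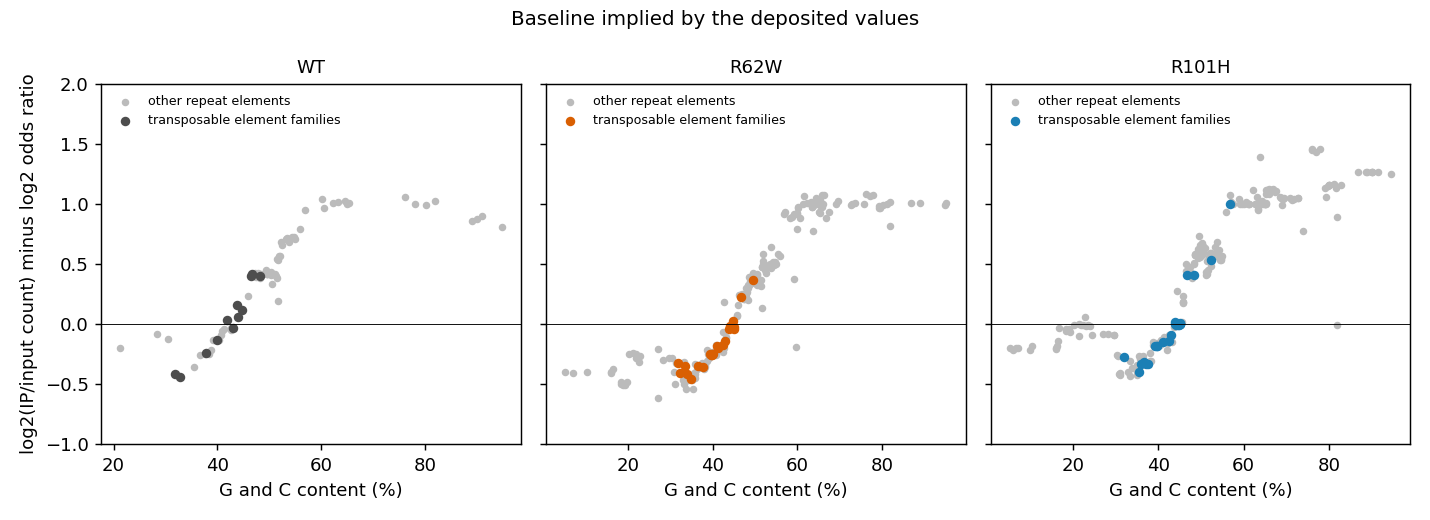
For the WT, R62W and R101H lists, the vertical axis gives the log2 ratio of pooled IP to input counts minus the mean log2 odds ratio, and the horizontal axis the G and C content in percent. Coloured points are transposable element families and grey points other repeats. Points climb from about the level of L1MA10 (-0.42 in WT) at low G and C to that of SVA_D (1.00 in R101H).

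LTR families were the most numerous over all distinct families and in WT and R101H, while R62W listed more L1 (11) than LTR families (8). Of 21 LTR families, 1 was in all 3 lists, 5 in WT alone, 1 in R62W alone and 7 in R101H alone. LTR35B was the shared one, with 0.68, 1.40 and 1.49 with WT, 0.97, 1.89 and 2.32 with R62W, and 1.70 and 1.89 with R101H. Both R101H values lay above all of WT, as held for 30.8% of the 65 elements tested, while R62W overlapped both other groups. It rests on few reads, with pooled IP counts of 134, 181 and 103 and input counts of 56, 56 and 29, and it passed in 2 of 3 replicates in WT and in R62W.

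The 5 families listed in WT alone were all LTR elements. LTR47A2 had the highest value of any WT family, with 1.84, 2.34 and 2.49, and passed in every replicate, from 164 IP and 31 input counts. LTR5B, a terminal repeat of HERV-K, had 0.57, 0.71 and 0.73 from 1920 and 914 counts. MLT2C1, an ancient LTR of the ERVL group, had 0.57, 0.66 and 0.66. The internal sequences MER66-int and MER92-int had 0.20, 0.89 and 1.58, and 0.52, 1.10 and 1.16. Apart from LTR47A2, each passed in 2 of 3 replicates. MER66-int had the highest q of all WT families, 0.945 in the replicate that failed, followed by HERVFH21-int with 0.666 and LTR35B with 0.407.

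LTR families listed with both substitutions and not in WT were LTR5A, LTR6A, LTR33B, LTR66 and MER41G. MER41G had 0.92, 1.18 and 1.74 in R62W and 1.34 and 1.54 in R101H. LTR6A had 0.62, 0.64 and 0.89 in R62W and 1.06 and 1.20 in R101H, which did not overlap. LTR5A, another HERV-K terminal repeat, had 0.70, 0.86 and 0.99, and 0.91 and 1.00. LTR33B, an ERVL-type LTR, had 0.53, 0.56 and 0.62, and 0.67 and 0.74, without overlap. Higher R101H values without overlap, as in LTR6A and LTR33B, were found for 26.1% of the 165 elements listed with both substitutions. LTR66 had 0.12, 0.93 and 1.16 in R62W, with a highest q of 0.91, and 0.89 and 0.99 in R101H. The R101H replicates lay close together in all 5, with SDs of 0.05 to 0.14, as in the 28 R101H families generally (median SD 0.098). Over all 252 elements of the R101H list the median SD was larger, 0.22. Each R101H SD rests on 2 values, both of which had to pass for the element to be listed.

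A pair of internal retroviral sequences was shared between WT and 1 substitution. LTR25-int had 0.58, 1.09 and 1.20 in WT and 0.27, 0.83 and 1.04 in R62W, where its highest q was 0.635. HERVFH21-int had 0.41, 1.08 and 1.22 in WT and 0.91 and 1.37 in R101H. Values overlapped between groups for both. HERVFH19-int, listed in R62W alone, had 0.80, 0.81 and 1.52.

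R101H alone listed 7 LTR families with means of 0.46 to 0.94. LTR10A had 0.77 and 1.11, LTR41B 0.80 and 0.81, LTR22E 0.67 and 0.81, MER74B 0.69 and 0.76, LTR2C 0.69 and 0.73, and LTR25 0.55 and 0.78. HERVH-int, the internal part of a retrovirus family known for expression in pluripotent cells, had 0.45 and 0.46 from 3074 IP and 2242 input counts. It had the most IP counts of the R101H LTR families and the lowest mean of the whole R101H list.

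DNA transposons were few. MER91B, a fossil of the hAT group, was in all 3 lists with 0.75, 0.86 and 0.87 with WT, 0.48, 0.62 and 0.95 with R62W, and 0.75 and 0.90 with R101H. Its groups overlapped throughout. R101H alone listed Charlie17b at 0.84 and 0.86, Charlie30a at 0.60 and 0.83, and Tigger10 at 0.52 and 0.53. Charlie families are hAT transposons and Tigger families relatives of the pogo and mariner transposons.

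The comparison of each substitution with WT addresses how the substitution alters the RNA recovered with RPS19. For R62W minus WT, 68 elements listed in both groups were fitted together with limma, and 1 (1.47%) had an adjusted p under 0.05. That was the simple repeat (CGAGCCG)n, which is not a transposable element and was named after its value was seen. None of the 6 families passed, with limma adjusted p-values from 0.297 to 0.571, and 19 of the 68 elements (27.9%) but 0 of the 6 families had an unadjusted p under 0.05. Counting only higher values in R62W, that share was 26.5%. Families without overlap between groups numbered 2 of 6, both higher in R62W, against 33.8% of all elements tested.

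L1MA10 had the largest R62W minus WT difference of the families, 0.77 (SE 0.46, limma 95% interval -0.34 to 1.88, adjusted p = 0.297). LTR35B followed with 0.54 (-0.45 to 1.52). SVA_A had 0.30 (-0.19 to 0.80) and SVA_E 0.29 (-0.21 to 0.79), where every R62W replicate was above WT. MER91B had -0.15 (-0.67 to 0.38) and LTR25-int -0.24 (-0.95 to 0.47). Every interval includes 0, and those of L1MA10, LTR35B, SVA_A and SVA_E do not exclude a difference of 0.7. The median over the 6 families was 0.30, while that over all 68 elements was 0.59, with 91.2% of elements and 4 of 6 families above 0. Relative to the median of all elements, SVA_A, SVA_E and LTR35B turned negative, at -0.29, -0.30 and -0.054, and L1MA10 remained positive at 0.18.

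For R101H minus WT, limma called 0 of 65 elements (0%), with 5 (7.69%) at an unadjusted p under 0.05 and none of them a transposable element family. The 6 shared families had limma adjusted p-values from 0.509 to 0.985. LTR35B had a difference of 0.61 (SE 0.36, limma 95% interval -0.24 to 1.45), SVA_E 0.44 (-0.30 to 1.18) and SVA_A 0.29 (-0.38 to 0.96). In these 3 every R101H replicate exceeded every WT replicate, which held for 30.8% of all elements tested. HERVFH21-int had 0.24 (-0.64 to 1.11), L1MA10 0.092 (-1.0 to 1.19) and MER91B -0.0054 (-0.67 to 0.66). The family median was 0.26 and that of all 65 elements 0.45, with 92.3% of elements and 5 of 6 families above 0. Relative to the latter, LTR35B had 0.16, and the other 5 were negative, from -0.46 for MER91B to -0.0090 for SVA_E.

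**Figure D4:**
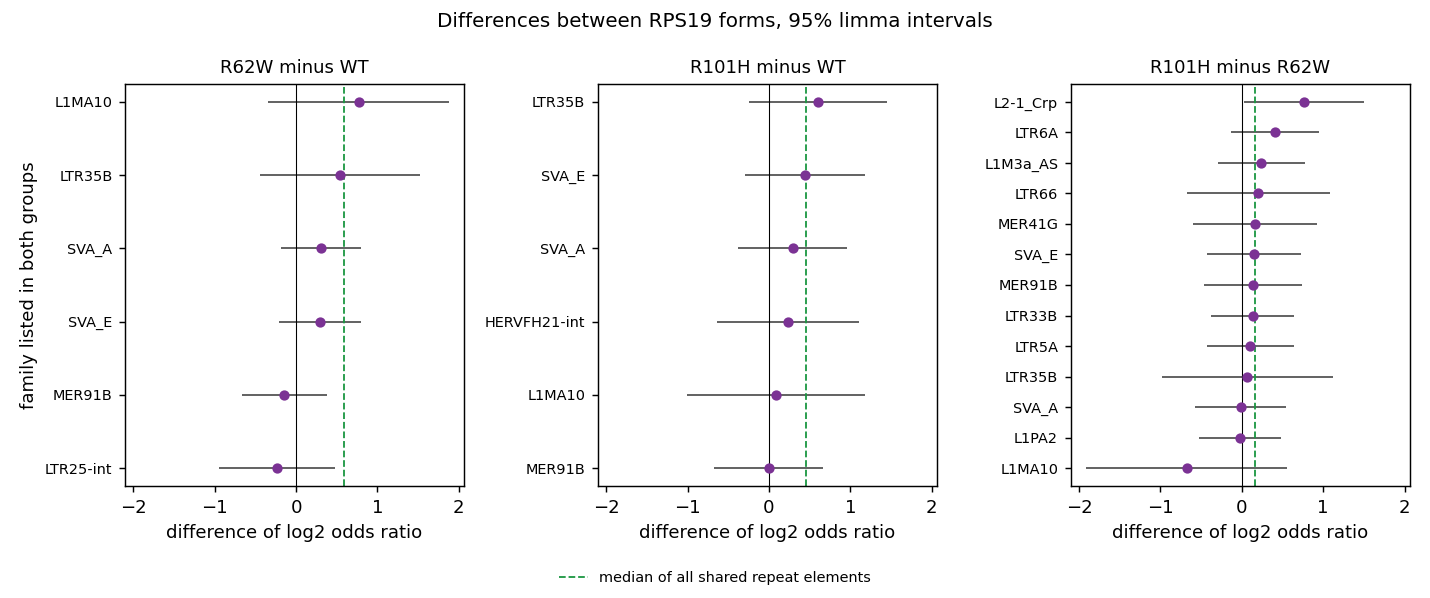
Points give the difference in mean log2 odds ratio (horizontal axis) for each transposable element family listed in both groups, in the panels R62W minus WT, R101H minus WT and R101H minus R62W, with limma 95% intervals as lines. The dashed line is the median over all shared repeat elements, at 0.59, 0.45 and 0.16, and a point above 0 but left of it, such as SVA_A or SVA_E against WT, is negative relative to that median. The L2-1_Crp interval in the last panel, 0.025 to 1.5, is the only one that leaves out 0, and its adjusted p was 0.743.

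Between the substitutions more families could be compared, and none passed. Limma called 0 of 165 elements (0%), with 7 (4.24%) at an unadjusted p under 0.05, of which 1 was among the 13 shared families. Counting only higher values in R101H, the share was 3.64%. L2-1_Crp was that one, higher in R101H by 0.76 (SE 0.30, limma 95% interval 0.025 to 1.5, unadjusted p = 0.0447, adjusted p = 0.743). LTR6A had 0.41 (-0.13 to 0.95) and L1M3a_AS 0.24 (-0.29 to 0.77). L1MA10 had the lowest difference, -0.68 (-1.91 to 0.56), with L1PA2 at -0.024 (-0.53 to 0.48) and SVA_A at -0.014 (-0.57 to 0.54). The remaining 7 families had differences from 0.070 for LTR35B to 0.20 for LTR66. Replicate values did not overlap for 4 of 13 families (L2-1_Crp, LTR6A, L1M3a_AS and LTR33B), all higher in R101H, against 26.1% of all elements tested.

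The median R101H minus R62W difference was 0.14 over the 13 families and 0.16 over all 165 elements, with 10 of 13 families and 68.5% of elements above 0. Over tRNA families it was -0.49 (35 tested) and over simple repeats 0.28 (105 tested). Relative to the median of all elements, L2-1_Crp had 0.60, LTR6A 0.25 and L1M3a_AS 0.077, while L1MA10 had -0.84. LTR33B, LTR35B, LTR5A, MER41G, MER91B and SVA_E turned negative on that scale, from -0.092 for LTR35B to -0.0013 for MER41G. All 3 comparisons use only elements listed in both groups, so a family listed in 1 group and not in the other, such as LTR47A2 or L1HS, gives no difference.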

How the data were processed

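Per the submitters' processing notes, fastp, STAR and the GRCh38 build were used. No source used here gives versions, the repeat caller or the handling of reads that map to several copies. The authors deposited 1 repeat table per IP group, made from all replicates. Per the file headers, IP and input columns are read counts summed over replicates, the log2 columns are log2 odds ratios (lowest, mean and highest replicate), and each deposited p-value or q-value comes from their own enrichment test. The deposited G and C fraction was printed as a percent. A deposited column of another quantity gives the number of replicates that passed. The window tables were not used.

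The lowest, mean and highest value fix every replicate value, without its library. Groups were then tested in R 4.3.3 by limma 3.58.1, using lmFit with eBayes, 1 fit per pair of groups over all repeat elements listed in both, with Benjamini-Hochberg adjustment at 0.05. The fit was tested on simulated data with independent replicates, which covers neither shared inputs nor the need to pass in at least 2 replicates. Counts were pooled, so no count model was fitted. Alternatives were centring on the median of all elements, an input minimum of 20, q of at most 0.05, other summaries of the replicate values, a trend in eBayes and 1 fit over all 3 groups. A pseudocount of 0.5 was added in ratios of counts. Families, prefixes and lists were chosen with earlier results of these data known. Named families are those in all 3 lists, the highest by value and by IP count per class and group, the largest and smallest differences, those in WT alone, the 5 highest in both substitutions only, and those with the highest q. Other families are given by their values as members of a class.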

Additional observations from a re-analysis of the deposited data

How the results depend on the processing

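No transposable element family passed limma's threshold under any alternative with a test, the lowest adjusted p being 0.0823 (L1MA10, R62W minus WT). The count of elements called for R62W minus WT, 1, was 0 with a pooled input count of at least 20, with the lowest value of each element left out, in 1 fit over elements in all 3 lists, and with a trend in eBayes. For R101H minus WT, limma called 1 element with the highest value left out, 2 in the fit over all 3 groups and 1 with a trend, none of them one of the families.

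Centring each difference on the median of all elements turned the family medians to -0.29 (R62W minus WT), -0.19 (R101H minus WT) and -0.022 (R101H minus R62W). It turned R62W minus WT to -0.054 for LTR35B, -0.29 for SVA_A and -0.30 for SVA_E, and R101H minus WT to -0.21 for HERVFH21-int, -0.36 for L1MA10, -0.16 for SVA_A and -0.0090 for SVA_E. For R101H minus R62W it gave -0.030 for LTR33B, -0.092 for LTR35B, -0.056 for LTR5A, -0.0013 for MER41G, -0.022 for MER91B and -0.012 for SVA_E. The shift subtracted is the cause by construction.

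Leaving out the lowest values gave 0.029 for MER91B (R101H minus WT), -0.22 for LTR35B and -0.050 for LTR66 (R101H minus R62W). Leaving out the highest gave -0.019 for L1MA10 (R101H minus WT) and -0.030 for SVA_E (R101H minus R62W). Pooled counts gave 0.046 for L1PA2 and 0.17 for SVA_A, and replicate medians -0.092 for LTR35B, all R101H minus R62W. The cause was not tested. Of 153 values with a test, 135 kept their direction and side of the threshold, and of 50 without one (pooled counts and replicate medians), 47 kept their direction.

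With a highest q of at most 0.05, WT listed 5 families (2.15% of IP counts) and R62W 13 (8.04%), while R101H, with 2 replicates that both had to pass, kept 28. Over all listed elements, 50 of 79 (WT), 139 of 230 (R62W) and 252 of 252 (R101H) passed in every replicate. With a lowest replicate value of at least 1 the numbers of families were 2, 2 and 7. That value is the lowest of 3 for WT and R62W but of 2 for R101H, so the R101H number is not comparable with the others. No paired analysis was possible because the deposited values carry no replicate number, and for the same reason no single library could be left out. Low counts limit LTR35B, LTR47A2 and L2-1_Crp most.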

Other observations

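Transposable elements whose names fall outside the prefixes were also listed, 3 in WT and 6 with each substitution, over 7 distinct names picked after the lists were read. PABL_B, an LTR, was in all 3 lists and had the highest mean of these in each. Its replicate values were 1.42, 1.51 and 2.03 with WT, 2.09, 2.20 and 3.97 with R62W, and 1.85 and 2.34 with R101H. Every R62W replicate lay above WT, as held for 33.8% of the 68 elements tested. The difference was 1.10 (SE 0.53, limma 95% interval -0.17 to 2.36, adjusted p = 0.209), so PABL_B did not pass. Its highest R62W value stood 1.77 above the next one. X9_LINE had 0.33, 0.75 and 1.08 with WT, 1.13, 1.23 and 1.73 with R62W, and 1.25 and 1.55 with R101H. Against WT its limma adjusted p was 0.185 for R62W and 0.48 for R101H.

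MamGypLTR3 was listed in WT (mean 1.21) and R62W (0.99). HSMAR1, a mariner transposon, OldhAT1, a hAT transposon, and MamGyp-int were listed with both substitutions and not in WT, at means of 0.73, 0.62 and 0.70 in R62W and 0.89, 0.79 and 0.97 in R101H. Zaphod3 was listed in R101H alone, with 0.61 and 0.74.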
